A study of Mus musculus with 20 samples.

Results

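Ccdc159 was followed together with the genes that share its naming scheme, all gene symbols made of Ccdc and a number with at least 40 counts summed over 20 mouse testis libraries. Among 22066 symbols counted, 140 matched the name and 137 reached the count, and 135 of these passed the filter on low counts and were tested among 16534 genes. Just above the count minimum stood Ccdc92b with 70 counts and Ccdc177 with 72, the pair of members too low to test, followed by Ccdc190 with 180 and Ccdc85a with 195. Just below it stood Ccdc201 and Ccdc194 with 18 counts each and Ccdc121rt1 with 10.

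The samples were testes of male mice of the NSG strain, which lacks working lymphocytes and so tolerates human grafts, housed at an age of 6 weeks. The tissue is labelled as mixed testicular cells, so each value averages over every cell type of the organ. Poly(A) RNA was sequenced from 5 groups of 4 samples. High-VCR and Low-VCR mice carried cells of an acute lymphoblastic leukaemia of the B lineage taken from patients, had high or low infiltration of leukaemic cells in the peripheral blood, and were given the tubulin-binding drug vincristine. VCR mice were given vincristine, and their labels name no injected cells. ALL mice carried the leukaemia without vincristine, and NC mice were normal controls. The engraftment protocol put 400000 leukaemic cells into a tail vein, vincristine was dosed at 0.5 mg/kg into the peritoneum each week for 3 weeks from day 69, and control groups received saline. The infiltration grade was assigned to mice by the study and was not a randomised treatment. The series title names Ccdc159 as lowered by vincristine, which is the question the comparisons address.

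A coiled coil is a pair or bundle of protein helices wound round each other, and it serves as a rod, a spacer or a grip between proteins. Ccdc is a provisional name for genes whose product is predicted to hold such a stretch, so the genes share a structural feature and not necessarily a common ancestor. In the testis many of them are known as parts of the sperm tail, where coiled-coil rulers, dynein docking factors and linkers between microtubule doublets build the axoneme, and others act at the acrosome, the centriole, endosomes, mitochondria or outside the cell. Once a role is established a gene is often renamed, which is why Cfap58 and Drc1 no longer carry a Ccdc symbol.

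Libraries held 13.1 to 16.4 M (mega) counts in High-VCR, 13 to 13.9 M in Low-VCR, 10.6 to 14 M in VCR, 10.3 to 11.8 M in ALL and 9.43 to 15 M in NC. Mitochondrially encoded genes took 4.69 to 9.08% of counts in High-VCR, 4.87 to 8.31% in Low-VCR and 5.66 to 11.9% in VCR, against 1.78 to 2.11% in ALL and 1.87 to 2.6% in NC. The library VCR 1 stood apart: its 20 round spermatid marker genes summed to 63.5 CPM (counts per M counts of the library, scaled with TMM), the lowest of all libraries, while the highest VCR library had 1540 CPM and NC libraries had 6010 to 6520 CPM. Ccdc159 and some counts of members are also given without VCR 1. Unless stated, other values of the VCR group include it. In bulk tissue, fewer cells of a type and less RNA per cell cannot be told apart. A value given with ± and no unit is a log2 fold change with its standard error, from 1 edgeR fit with 4 libraries per group. The fit estimates the spread of a gene in common over the 5 groups, although the groups differed in it. Among 86 members averaging at least 20 CPM, the median SD was 67.5% of the mean in VCR, 36.5% in High-VCR and 16.9% in Low-VCR. It was 5.72% in ALL and 7.17% in NC. Standard errors and p-values of ALL against NC thus also carry the spread of the vincristine groups. "Rose" and "fell" are used of genes past an adjusted p of 0.05 (Benjamini-Hochberg, over every gene in the fit).

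Ccdc159 fell in VCR testes, and its level differed widely between them. It had 0, 0.0759, 14 and 5.63 CPM in the VCR libraries 1 to 4, against 51.4, 44.1, 48.1 and 43.1 CPM in the NC libraries. The groups did not overlap, and the raw counts in VCR were 0, 1, 214 and 74. The change was -3.22 ± 0.86 (adjusted p = 0.00258), an average of 4.93 ± 6.61 CPM in VCR and 46.7 ± 3.82 CPM in NC (SD, n = 4 each). Without VCR 1 it was -2.81, and without VCR 3, the highest library, it was -4.61. Its standard error was the 2nd largest of the 135 tested members, whose median was 0.417.

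In the leukaemia-bearing groups the levels of Ccdc159 overlapped. High-VCR libraries had 8.48, 5.26, 24.8 and 8.71 CPM, Low-VCR libraries 26.6, 38.5, 17.6 and 25.5 CPM, and ALL libraries 48.7, 17.5, 26.8 and 30.2 CPM. High-VCR 3 reached into the ALL range, and Low-VCR libraries lay wholly within it. High-VCR against ALL gave -1.38 ± 0.80 (adjusted p = 0.126) and Low-VCR against ALL -0.19 ± 0.78 (adjusted p = 0.84), so neither passed the test. The High-VCR difference did pass when only the groups compared were fitted (-1.66, adjusted p = 0.00986), with library number range as a block among the leukaemia groups (-1.41, adjusted p = 0.0188) and when High-VCR 3 was left out (-2.04, adjusted p = 0.0491). The Low-VCR difference changed sign with the scaling, at 0.06 with library size alone, and without ALL 1, at 0.12.

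Between groups that both received vincristine, Ccdc159 was higher in Low-VCR than in VCR by 2.43 ± 0.84 (adjusted p = 0.0374), without overlap of the libraries. This call was lost when only those groups were fitted (adjusted p = 0.195), and also on leaving out VCR 1, 2 or 4 or Low-VCR 1, 2 or 4, with adjusted p up to 0.0817. High-VCR against Low-VCR gave -1.19 ± 0.79 (adjusted p = 0.339) and High-VCR against VCR 1.24 ± 0.82 (adjusted p = 0.748). ALL against NC gave -0.60 ± 0.78 (adjusted p = 1). The group means were 4.93 CPM in VCR, 11.8 in High-VCR, 27 in Low-VCR, 30.8 in ALL and 46.7 in NC, and none of the 4 neighbouring pairs in that order passed the test. Library numbers in the labels are lower for VCR and NC than for the leukaemia groups, so differences of High-VCR or Low-VCR from VCR and of ALL from NC cannot be told apart from whatever goes with that numbering; the labels give all samples 1 batch.

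**Figure D1:**
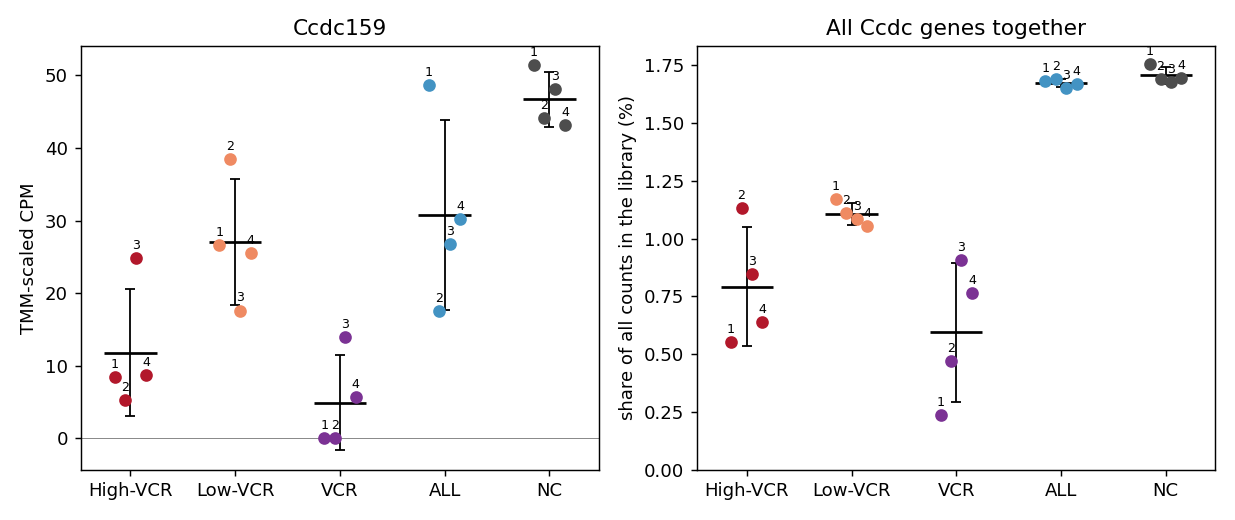
Ccdc159 level (left, TMM-scaled CPM) and the share of all counts taken by the 137 Ccdc genes (right, percent) in each library of High-VCR, Low-VCR, VCR, ALL and NC. Points are libraries with their numbers, the bar is the group mean and the whisker 1 SD. VCR 1 and VCR 2 lie at 0 and 0.0759 CPM of Ccdc159, while the Ccdc share falls to 0.235% in VCR 1 and keeps to 1.65 to 1.76% in all ALL and NC libraries.

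The scatter of Ccdc159 was not the common pattern of its namesakes. Among the 86 members that averaged at least 20 CPM over all libraries, its SD as a percentage of the mean was the largest in ALL, at 42.5% against a median of 5.72%. It was also the largest in VCR, at 134% against a median of 67.5%. In NC it took place 35, at 8.19% against 7.17%. In High-VCR the value was 74.6% (median 36.5%) and in Low-VCR 31.9% (median 16.9%), places 10 and 14. ALL 1 lay among the NC libraries, and ALL 2, at 17.5 CPM, just under the lowest Low-VCR library, at 17.6 CPM.

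Per kilobase of exon, Ccdc159 is a middling member. It averaged 5.41 CPM per kb in High-VCR, 12.4 in Low-VCR, 2.26 in VCR, 14.1 in ALL and 21.4 in NC. That was place 53 of the 134 members with a known length in NC and place 97 in VCR, where the median member had 6.2 CPM per kb. The most abundant member in all 5 groups was Ccdc136, which in mice is needed to form the acrosome, with 183 CPM per kb in VCR and 764 in NC. Ccdc181, Ccdc91, Ccdc92 and Ccdc54 followed in NC with 348, 314, 230 and 224 CPM per kb. Ccdc159 lies on chromosome 9 and shares 86 of its 2183 exon bases with Tmem205 on the other strand. Tmem205 had 24.5 ± 1.53 CPM in VCR and 35.2 ± 6.61 CPM in NC (SD, n = 4 each), a change of -0.52 ± 0.16 (adjusted p = 0.00748).

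Promoter windows from RefSeq on GRCm38.p6 reach from 250 bases before a gene's start to 50 after it. They are shown for Ccdc159, for the member with the largest fall in VCR that the RefSeq table holds (Ccdc182) and for the one with the largest rise (Ccdc8). All are on the plus strand, at chr9:21927221-21927520 for Ccdc159, chr11:88293793-88294092 for Ccdc182 and chr7:16993652-16993951 for Ccdc8. Capitals mark a CCAAT box or a GC box (GGGCGG) on either strand, or GTTGCC, an arm of the X-box read by RFX factors.
Ccdc159: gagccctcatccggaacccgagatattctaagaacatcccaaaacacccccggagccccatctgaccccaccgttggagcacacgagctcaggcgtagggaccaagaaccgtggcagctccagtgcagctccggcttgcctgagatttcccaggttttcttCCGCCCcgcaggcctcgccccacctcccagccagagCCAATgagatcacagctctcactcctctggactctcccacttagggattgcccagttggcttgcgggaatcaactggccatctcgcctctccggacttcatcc
Ccdc182: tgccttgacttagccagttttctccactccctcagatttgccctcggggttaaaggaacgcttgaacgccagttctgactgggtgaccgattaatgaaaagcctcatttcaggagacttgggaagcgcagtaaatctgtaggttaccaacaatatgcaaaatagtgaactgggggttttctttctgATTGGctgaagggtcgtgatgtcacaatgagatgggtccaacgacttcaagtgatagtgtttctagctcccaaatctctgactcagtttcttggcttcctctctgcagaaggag
Ccdc8: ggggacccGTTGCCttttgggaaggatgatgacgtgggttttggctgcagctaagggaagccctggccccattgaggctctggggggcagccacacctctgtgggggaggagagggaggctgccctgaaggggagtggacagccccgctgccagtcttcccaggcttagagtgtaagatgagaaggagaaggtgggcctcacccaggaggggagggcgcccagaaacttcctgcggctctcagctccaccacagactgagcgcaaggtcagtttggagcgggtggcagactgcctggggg
The Ccdc159 window holds a GC box at base 162 and a CCAAT box at base 198, both counted from 1 at its 5′ end. The Ccdc182 window has a CCAAT box alone, at base 187, and the Ccdc8 window has an X-box arm alone, at base 9. Searching both strands of all windows of the same length, the X-box arm GTTGCC was found in 21.5% of 135 windows of Ccdc genes and in 12.5% of all 32851 windows. It was in 21.2% of windows of members that fell in VCR and 28% of windows of those that rose. The CCAAT box was in 40% of Ccdc windows and 37.4% of all, the GC box in 45.2% and 35.7%, and the cAMP response element TGACGTCA in 2.22% and 1.79%. These matches describe letters in a window, and the windows covered 108 of the 137 members.

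Summed together, Ccdc transcripts were scarcer in every vincristine group. They summed to 7520 ± 2880 CPM in High-VCR, 10600 ± 587 CPM in Low-VCR and 5230 ± 2810 CPM in VCR, against 19100 ± 207 CPM in ALL and 19300 ± 571 CPM in NC (SD, n = 4 each). No vincristine library reached the lowest ALL or NC library. The VCR libraries 1 to 4 gave 0.235, 0.472, 0.905 and 0.764% of their counts to these genes, and the Low-VCR libraries 1.17, 1.11, 1.09 and 1.06%.

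In VCR against NC, 86 of 135 members fell and 28 rose. That is 63.7% lower and 20.7% higher, where 35.6% of all tested genes were lower and 42.1% higher. The median member changed by -1.50 and the median of all genes by 0.10. The libraries did not overlap for 84 members that were lower and 27 that were higher, against 34.2% and 39.7% of all genes. Ccdc159 took place 11 from the lowest fold change. Without VCR 1, 81 members fell and 28 rose, and the median member changed by -1.22.

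The falls lay mostly among members that were abundant on average over all libraries. That average includes the NC and ALL libraries, where falling genes were higher, so the split by level is partly set by the falls. Genes of any name were split in the same way. Of 86 members averaging at least 20 CPM, 72 fell and 9 rose, with a median of -1.95, while of 7951 genes of any name at that level 3596 fell and 2975 rose, with a median of -0.24. Of 49 scarcer members 14 fell and 19 rose (median 0.11), while of 8583 scarcer genes 2295 fell and 3985 rose (median 0.47).

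**Figure D2:**
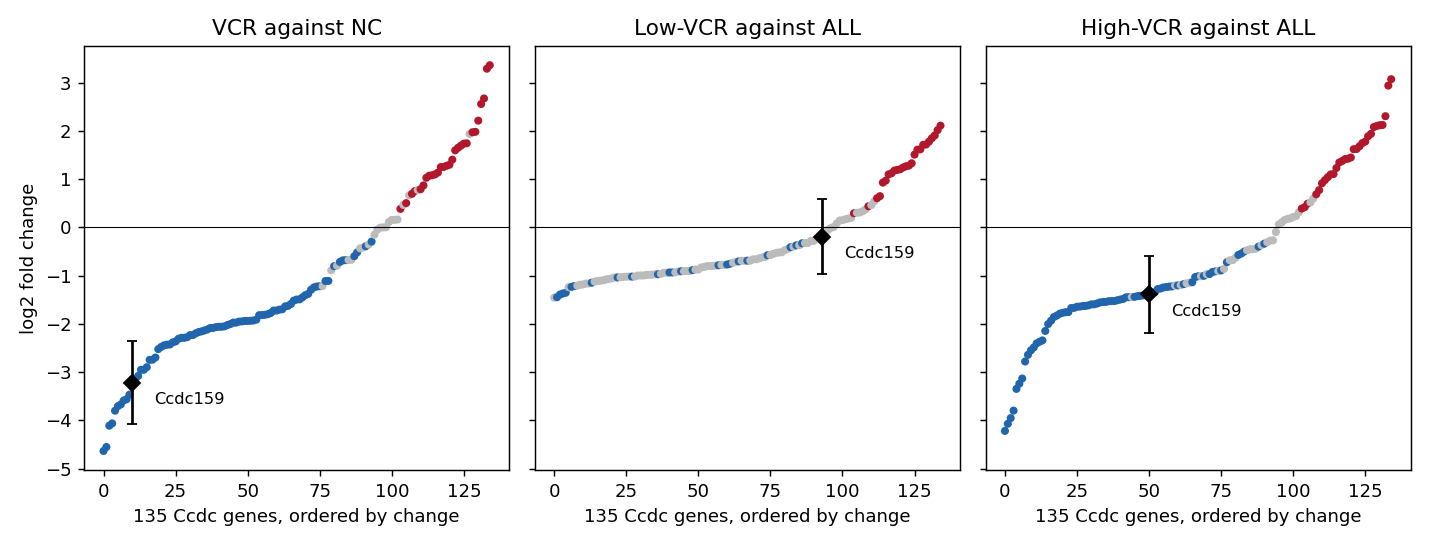
Log2 fold change of the 135 tested Ccdc genes, ordered within each panel, for VCR against NC, Low-VCR against ALL and High-VCR against ALL. Blue points fell and red points rose at an adjusted p under 0.05, grey points did not pass, and the black diamond is Ccdc159 with its standard error. Counted from the lowest, Ccdc159 takes place 11 in the first panel, 94 in the second and 51 in the third.

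The deepest falls in VCR were those of Ccdc81, Ccdc121rt2, Ccdc182, Ccdc121 and Ccdc105. Ccdc81 had 1.75, 24.9, 17 and 19.8 CPM in VCR libraries, against 397, 414, 399 and 368 CPM in NC. It changed by -4.63 ± 0.73 (adjusted p = 2.23e-05). All VCR libraries were far under every NC library, with VCR 1 lowest.

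Ccdc182 had 0.152, 2.51, 3.61 and 2.21 CPM in VCR libraries, against 35.3, 40, 33.1 and 39.8 CPM in NC, a change of -4.11 ± 0.65 (adjusted p = 2.2e-05). Ccdc121 had 0.381, 2.89, 1.9 and 1.37 CPM in VCR libraries, against 25.2, 27.7, 28.6 and 28.7 CPM in NC, a change of -4.06 ± 0.43 (adjusted p = 2.84e-07). Ccdc121rt2, named as a retrogene of it, had 0, 1.59, 1.05 and 6.46 CPM in VCR libraries, against 57.1, 55.8, 47.6 and 52.7 CPM in NC, a change of -4.55 ± 0.84 (adjusted p = 0.000109). Reads of Ccdc121 and the symbols named after it may have been divided between them by the counting, so their separate values are uncertain, as are those of Ccdc7a and Ccdc7b.

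Markers of meiotic and later germ cells fell with these genes. Round spermatid markers summed to 63.5 to 1540 CPM in VCR libraries and 6010 to 6520 CPM in NC, and 20 of 20 fell (median -4.06). Markers of pachytene to diplotene spermatocytes summed to 505 to 7120 CPM in VCR libraries and 12600 to 13100 CPM in NC, and 14 of 15 fell (median -1.88). Of the 86 falling Ccdc genes 3 fell by more than the first median and 54 by more than the second. Leptotene and zygotene spermatocyte markers fell in 14 of 16 cases (median -1.27), and all 15 elongating and condensing spermatid markers fell (median -2.23). Spermatogonial markers summed higher in VCR libraries, at 412 to 539 CPM, than in NC, at 243 to 262 CPM. Of 14, 6 rose and 2 fell (median 0.67). Over all tested genes 42.1% rose and 35.6% fell, so the number of rising markers was near the general share. No marker of these lists was at 0 in all libraries of a group, and the part of these cells in the falls was not tested.

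The largest rises in VCR were those of Ccdc8, Ccdc80, Ccdc9b, Ccdc149 and Ccdc125. Ccdc8, a partner of CUL7 and OBSL1 in a complex that is mutated in a human growth disorder, had 72.5, 74.5, 36.6 and 49.7 CPM in VCR libraries, against 4.63, 7.21, 6.5 and 4.35 CPM in NC. It rose by 3.36 ± 0.30 (adjusted p = 6.54e-08). Ccdc80, a secreted protein of the extracellular matrix, had 80.5, 55.9, 44.2 and 50.3 CPM in VCR libraries, against 4.14, 7.1, 5.91 and 6.3 CPM in NC. It rose by 3.29 ± 0.25 (adjusted p = 3.02e-08). For both, every VCR library was above every NC library.

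Ccdc9b rose by 2.67 ± 0.27 and Ccdc149 by 2.56 ± 0.35, with means of 10.3 ± 2.83 and 5.63 ± 1.31 CPM in VCR and 1.58 ± 0.31 and 0.945 ± 0.0561 CPM in NC (SD, n = 4). Ccdc125 rose by 2.21 ± 0.59, with 2.29, 2.28, 0.656 and 2.51 CPM in VCR libraries against 0.122, 0.431, 0.582 and 0.45 CPM in NC. Its VCR 3 value was only just above the highest NC library. The 19 markers of Sertoli cells, the somatic nurse cells of the tubule, summed to 9140 to 13900 CPM in VCR libraries and 2250 to 2560 CPM in NC, with no marker at 0. Of these 18 rose, with a median of 1.94, and 7 of the 28 rising Ccdc genes rose by more than this median. Leydig cell markers summed to 7410 to 16600 CPM in VCR libraries and 1330 to 2110 CPM in NC (11 of 11 rose), and macrophage markers to 762 to 1180 CPM and 239 to 262 CPM (10 of 12 rose). The part of these cells in the rises was not tested.

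Members of the sperm tail fell with 1 exception among those tested. Counts of this and the other role lists stand against 35.6% of all tested genes lower and 42.1% higher. Of 19 tested genes of the axoneme and flagellum 18 fell and 1 rose in VCR, with a median of -1.97. With library size alone 14 fell and 1 rose (median -1.61). Ccdc105, a tektin-like protein of the sperm tail, had 1.98, 15.6, 22.4 and 27.6 CPM in VCR libraries, against 273, 243, 203 and 225 CPM in NC, a change of -3.80 ± 0.62 (adjusted p = 2.96e-05). Ccdc28a, needed in mice for normal sperm shape and swimming, had 10.5, 33.6, 46.4 and 37.7 CPM in VCR libraries, against 132, 128, 118 and 126 CPM in NC, a change of -1.97 ± 0.31 (adjusted p = 2.29e-05). Every NC library exceeded every VCR library for both. The one that rose was Ccdc153, a scarce subunit of the dynein regulatory complex described under the leukaemia groups.

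The acrosome list had 3 members, Ccdc62, Ccdc87 and Ccdc136, and all of them fell in VCR, with a median of -2.06. Ccdc136 had 77.6, 591, 1500 and 994 CPM in VCR libraries, against 3510, 3430, 3140 and 3170 CPM in NC, a change of -2.07 ± 0.54 (adjusted p = 0.00204). The VCR libraries spread widely and none reached an NC library. Ccdc87, which in mice is needed for the acrosome and for fertilisation, fell by 2.06 on the log2 scale, with an SE of 0.52 (adjusted p = 0.0016).

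Genes of the centriole, centriolar satellite and basal body were divided. Of 11 tested, 6 fell and 1 rose in VCR (median -0.89), while with library size alone 5 fell and 2 rose (median -0.53). Ccdc66, a satellite and ciliary protein, had 20.4, 22, 39.1 and 40.3 CPM in VCR libraries, against 66.6, 67.6, 67.2 and 83.5 CPM in NC, a change of -1.23 ± 0.26 (adjusted p = 0.000341). Ccdc28b, a modifier of Bardet-Biedl syndrome, had 38.2, 31, 20.8 and 34.6 CPM in VCR libraries, against 9.99, 10.7, 9.02 and 11.4 CPM in NC, and rose by 1.60 ± 0.24 (adjusted p = 1.08e-05). The groups did not overlap for either gene.

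The endosome, Golgi and vesicle list went both ways, with 4 of 8 falling and 4 rising (median -0.23, and 0.16 with library size alone). Ccdc22 and Ccdc93, which work in one endosomal recycling complex, moved apart: Ccdc22 rose by 1.97 ± 0.20 (adjusted p = 1.32e-07), with 19.2 ± 4.31 CPM in VCR and 4.89 ± 0.57 CPM in NC. Ccdc93 had 14.8 ± 0.44 CPM in VCR and 41.7 ± 6.19 CPM in NC (SD, n = 4 each), and fell by 1.50 on the log2 scale (adjusted p = 4.23e-07). Ccdc186, which acts in dense-core vesicle formation, had 18.2, 20.8, 19.9 and 20.9 CPM in VCR libraries, against 90.1, 86.4, 81.4 and 81.3 CPM in NC, a change of -2.09 ± 0.20 (adjusted p = 8.58e-08). Its VCR libraries lay close together, VCR 1 included.

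All 3 mitochondrial members rose in VCR (median 0.79), 2 of them with DESeq2 size factors. Ccdc90b, a relative of a regulator of the calcium uniporter, had 32.4 ± 2.45 CPM in VCR and 18.7 ± 3.68 CPM in NC and rose by 0.79 ± 0.15 (adjusted p = 9.66e-05). Ccdc51, part of a mitochondrial potassium channel, had 9.45 ± 3.1 CPM in VCR and 3.88 ± 0.39 CPM in NC (SD, n = 4 each) and rose by 1.28 ± 0.24 (adjusted p = 0.00012). Of 13 members of the nucleus, RNA and translation list 8 fell and 3 rose (median -0.43), while with library size alone 4 fell and 4 rose (median -0.06). Ccdc6, known for its fusions with the RET kinase in thyroid cancer, fell by 1.80 on the log2 scale (adjusted p = 3e-07), with 25.8 ± 7.39 CPM in VCR and 89.8 ± 8.51 CPM in NC. Ccdc59 rose by 1.25 ± 0.22 (adjusted p = 7.31e-05).

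Of 14 members listed under signalling, junctions and secreted proteins 4 fell and 5 rose, Ccdc8 and Ccdc80 among them, with a median of 0.71. Both shares were under those of all tested genes, 35.6% lower and 42.1% higher, so the counts set nothing apart for this list. Of the 64 tested members with no role list 43 fell and 11 rose (median -1.94). No gene of the meiosis list still carried a Ccdc symbol in the table. The genes that RefSeq lists as once named Ccdc gave 33 falling and 9 rising of 54 tested (median -1.11), Cfap58 at -4.21 and Mcur1 at 2.47 for example, both picked after their values were seen.

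**Figure D3:**
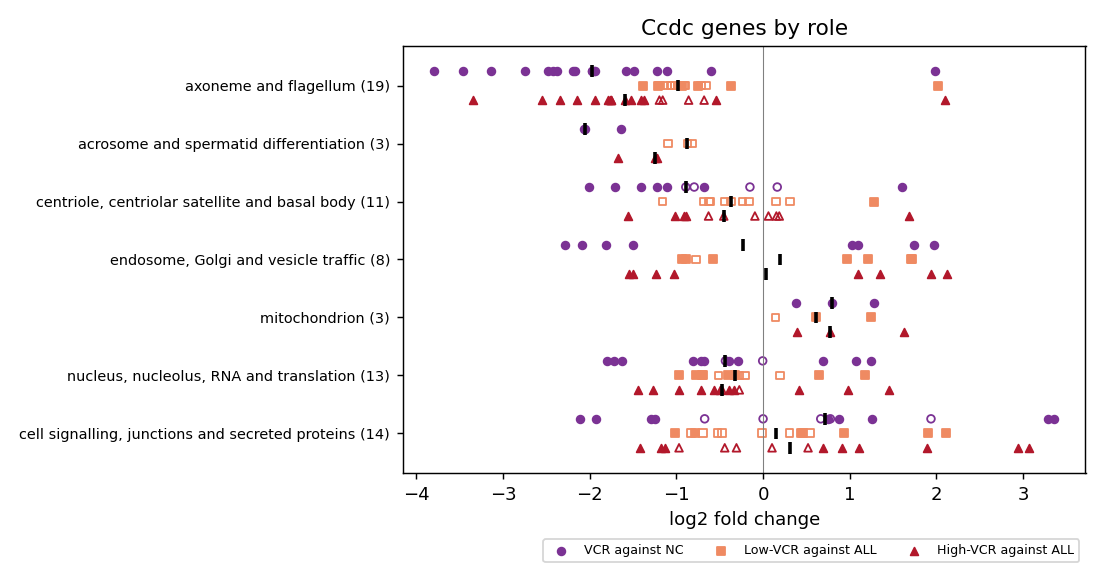
Log2 fold change of the tested Ccdc genes in each role list, with the number of genes in brackets, for VCR against NC (circles), Low-VCR against ALL (squares) and High-VCR against ALL (triangles). Filled symbols passed an adjusted p of 0.05, open ones did not, and black ticks are medians. Sperm tail genes lie left of 0 but for Ccdc153, and mitochondrial genes lie right of it.

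Some abundant members gave differences near 0. Ccdc97, a splicing-associated protein, had 47.8, 58.9, 59.4 and 50.4 CPM in VCR libraries, against 57, 51.5, 53.4 and 55.4 CPM in NC, a difference of 0.00 ± 0.12 (adjusted p = 0.976). Ccdc142 and Ccdc71 gave -0.05 ± 0.20 and 0.16 ± 0.10, with adjusted p of 0.839 and 0.166. These are levels relative to TMM scaling: with library size alone Ccdc97 gave 0.38 and Ccdc71 rose by 0.55, while the median of all genes moved by 0.39.

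**Figure D4:**
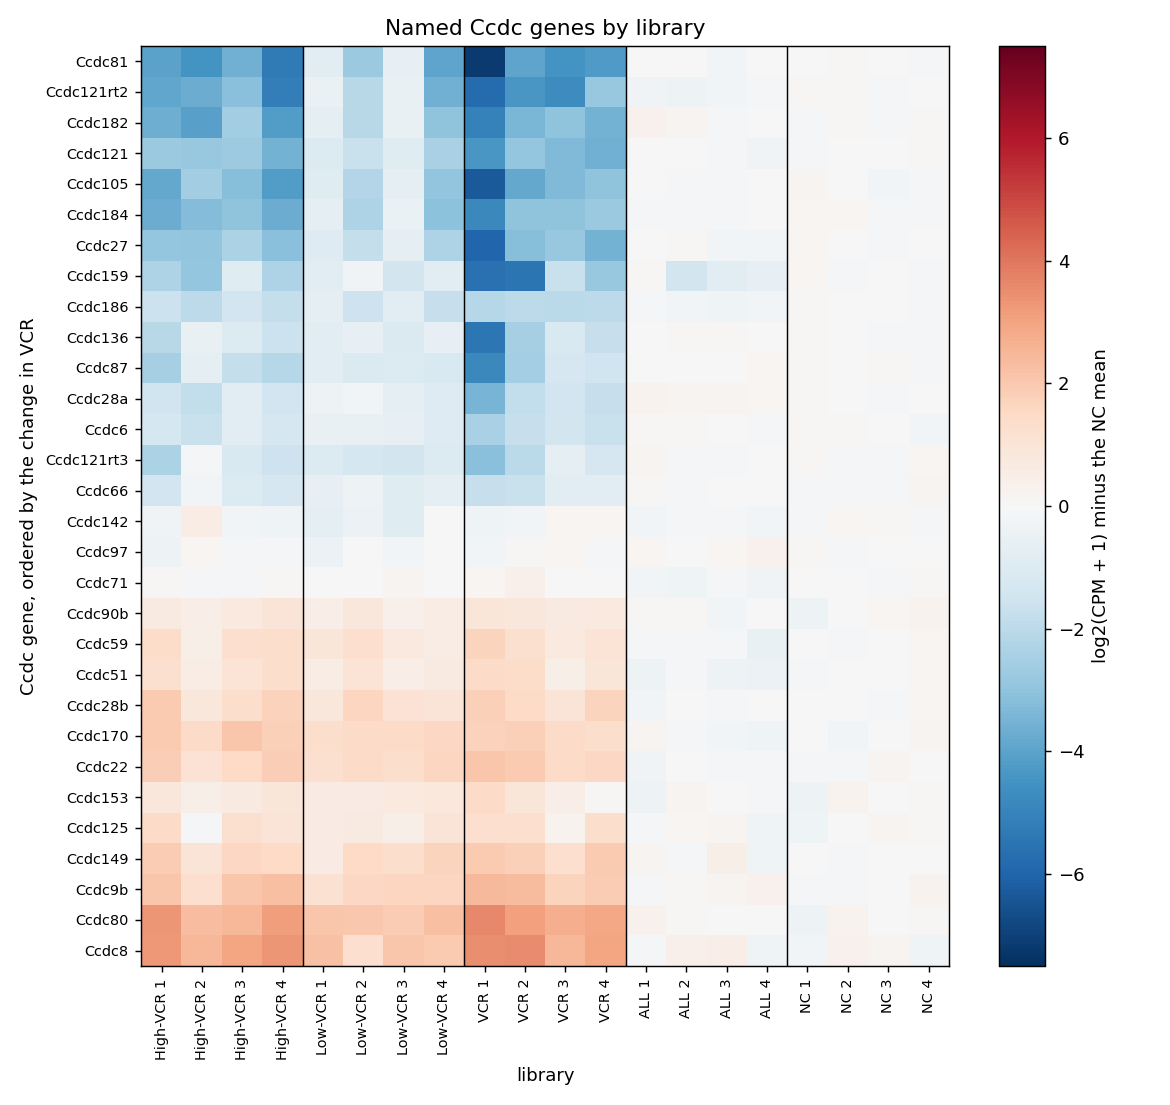
Heat map of named Ccdc genes (rows, ordered by the change in VCR against NC) in the 20 libraries (columns), as log2(CPM + 1) minus the mean of the NC libraries. Blue is lower and red higher than NC. VCR 1 is the darkest column for Ccdc105, Ccdc27, Ccdc136, Ccdc87 and Ccdc28a, and among the ALL libraries the bluest cell is Ccdc159 in ALL 2, at 17.5 CPM.

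In leukaemia-bearing mice with low infiltration, Ccdc80, Ccdc153, Ccdc8, Ccdc149 and Ccdc9b led the rises and Ccdc182 the falls. In Low-VCR against ALL, 23 of 135 members fell and 25 rose, 17% and 18.5%, where 15.2% of all genes were lower and 36.4% higher. The split depended on scaling: with DESeq2 size factors 51 fell and 22 rose, with upper-quartile scaling 30 and 23, and with library size alone 4 and 29. Counts over all tested genes moved too. In the same order they were 4525 lower and 5080 higher, 3094 and 5725, and 870 and 7239. The median was -0.69, and the libraries did not overlap for 77 lower and 27 higher members, against 29.4% and 35% of all genes. Leaving out single libraries gave 12 to 21 falling members, 12 to 14 of them without any 1 ALL library or Low-VCR 4.

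The named falls in Low-VCR were those of Ccdc182, Ccdc105, Ccdc121, Ccdc121rt3 and Ccdc27. Ccdc121 had 13.2, 7.82, 14.3 and 4.36 CPM in Low-VCR libraries, against 28, 27, 24.7 and 23.2 CPM in ALL, a change of -1.37 ± 0.37 (adjusted p = 0.00543). Ccdc182 had 21.5, 8.13, 25.1 and 3.7 CPM in Low-VCR libraries, against 46.4, 42.1, 34.6 and 36.5 CPM in ALL, a change of -1.45 ± 0.56 (adjusted p = 0.0396). In both, Low-VCR 2 and 4 were lower than Low-VCR 1 and 3. Ccdc105, Ccdc121rt3 and Ccdc27 fell by 1.39, 1.35 and 1.23 on the log2 scale, with adjusted p of 0.0458, 0.0485 and 0.0326. Of these 5 calls, those of Ccdc182, Ccdc105, Ccdc121rt3 and Ccdc27 were lost with library size alone (adjusted p = 0.0858 to 0.0998) and on leaving out single libraries.

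Ccdc80 had 27.6, 26.1, 24.3 and 31.2 CPM in Low-VCR libraries, against 7.62, 6.07, 5.86 and 5.74 CPM in ALL, and rose by 2.11 ± 0.24 (adjusted p = 2.22e-06). Ccdc153 had 0.966, 0.997, 1.12 and 1.23 CPM in Low-VCR libraries, against 0, 0.506, 0.293 and 0.221 CPM in ALL, and rose by 2.02 ± 0.66 (adjusted p = 0.0178). Every Low-VCR library was above every ALL library for both, though Ccdc153 rests on 225 counts in all 20 libraries. Ccdc8, Ccdc149 and Ccdc9b rose by 1.91, 1.85 and 1.78. Sertoli markers summed to 7020 to 9140 CPM in Low-VCR libraries and 2050 to 2160 CPM in ALL, where 18 of 19 rose, and their part was not tested. Markers of ciliated duct cells, which also carry axonemes, summed to 19.8 to 90.1 CPM in Low-VCR libraries and 130 to 152 CPM in ALL. They did not move as 1: of 5 tested, 1 fell and 2 rose (median -0.08), and their part was not tested either.

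By role, each median was nearer to 0 than in VCR against NC, a difference that was not tested over lists. The traffic median also changed sign, from -0.23 in VCR against NC to 0.20 here. For the traffic and nuclear lists this order depended on the scaling. Upper-quartile scaling gave traffic medians of 0.19 here and -0.06 in VCR against NC, and nuclear medians of -0.34 and -0.30. Library size alone likewise put both lists further from 0 here. Of 19 sperm tail members 5 fell and 1 rose (median -0.98), where 9 fell with DESeq2 size factors and none with library size alone. None of the 3 acrosome members passed (median -0.87), though 2 fell with DESeq2 size factors. Of 11 centriolar members none fell and 1 rose, though 3 fell with DESeq2 size factors. The traffic list had 3 falling and 4 rising of 8 (1 and 4 with library size alone), the mitochondrial list 2 rising of 3, the nuclear list 6 falling and 2 rising of 13 (9 and 1 with DESeq2 size factors, 1 and 2 with library size alone), and the signalling list 2 falling and 4 rising of 14 (1 and 5 with library size alone). Of 64 members with no role list 7 fell and 11 rose. Over all tested genes 15.2% were lower and 36.4% higher. The signalling list and the members with no role list were under both shares.

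With high infiltration, Ccdc81 led the falls and Ccdc8 the rises. In High-VCR against ALL, 73 of 135 members fell and 30 rose, 54.1% and 22.2%, where 30.5% of all genes were lower and 42.4% higher. The median was -1.01 against 0.16 for all genes. The libraries did not overlap for 72 lower and 28 higher members, against 29.1% and 40.9% of all genes. Ccdc81 had 23, 16.9, 31.9 and 9.21 CPM in High-VCR libraries, against 398, 388, 343 and 379 CPM in ALL, a change of -4.22 ± 0.72 (adjusted p = 5.47e-05). Ccdc184 had 1.56, 2.53, 3.09 and 1.51 CPM in High-VCR libraries, against 30.1, 30.8, 28.5 and 31.6 CPM in ALL, a change of -3.80 ± 0.61 (adjusted p = 3.23e-05). Neither gene had a High-VCR library near the ALL range. Ccdc182, Ccdc121rt2 and Ccdc105 fell by 4.07, 3.95 and 3.35 on the log2 scale.

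Ccdc8 had 61.3, 36.4, 50.1 and 65.2 CPM in High-VCR libraries, against 5.22, 7.39, 8.4 and 4.19 CPM in ALL, and rose by 3.07 ± 0.30 (adjusted p = 1.49e-07). Ccdc170, a Golgi and microtubule protein, had 22.2, 15.2, 24.1 and 20.1 CPM in High-VCR libraries, against 5.88, 4.66, 4.3 and 3.86 CPM in ALL, and rose by 2.12 ± 0.18 (adjusted p = 5.49e-08). High-VCR 2 was the lowest of its group for both and still above every ALL library. Ccdc80, Ccdc9b and Ccdc153 rose by 2.94, 2.31 and 2.10. Sertoli markers summed to 7270 to 12300 CPM in High-VCR libraries. By role, 14 of 19 sperm tail members fell and 1 rose (median -1.60), all 3 acrosome members fell, 4 of 11 centriolar members fell and 1 rose (2 and 3 with library size alone), and all 3 mitochondrial members rose. The traffic list was split 4 and 4, the nuclear list had 8 falling and 3 rising (4 and 3 with library size alone), the signalling list 3 and 6, and members with no role list 37 and 12. These counts stand against 30.5% of all tested genes lower and 42.4% higher, so those of the 14 signalling members set nothing apart.

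Ccdc159 passed in VCR against NC and not in Low-VCR or High-VCR against ALL, which share the ALL libraries as controls. The test of the difference between responses did not pass for it: Low-VCR against ALL minus VCR against NC gave 3.03 ± 1.14 (adjusted p = 0.111), and the same with High-VCR gave 1.84 ± 1.13 (adjusted p = 0.97).

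That difference between responses passed for 11 members with Low-VCR, 2 lower and 9 higher, where 1.26% of all genes were lower and 3.81% higher. Ccdc121 gave 2.69 ± 0.55 (adjusted p = 0.0262), Ccdc166 1.51 ± 0.35 and Ccdc50 1.14 ± 0.26 (adjusted p = 0.0352 for both). The count was 0 or 1 on leaving out any single NC or ALL library, VCR 2, Low-VCR 1 or Low-VCR 3, and 23, 26 and 18 without VCR 1, VCR 3 and Low-VCR 4. With High-VCR no member passed, where 0.00605% of all genes did, and 2 members had an unadjusted p under 0.05, against 4.55% of all genes. The 3 smallest p were those of Ccdc50, Ccdc106 and Ccdc93, all at an adjusted p of 0.97.

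High-VCR against Low-VCR separated 12 members, 9 lower and 3 higher (6.67% and 2.22%), where 4.69% of all genes were lower and 3.13% higher. Ccdc166 had 4.54, 4.48, 4.6 and 3.35 CPM in High-VCR libraries, against 14.5, 9.05, 15.9 and 6.24 CPM in Low-VCR, a difference of -1.43 ± 0.25 (adjusted p = 0.0215). Ccdc47, a chaperone of membrane proteins in the endoplasmic reticulum, had 72.2, 68.5, 61.4 and 68.5 CPM in High-VCR libraries, against 46.2, 44.8, 43.6 and 59.8 CPM in Low-VCR, a difference of 0.48 ± 0.11 (adjusted p = 0.0219). Neither overlapped. Ccdc121 was lower in High-VCR, with -1.87 ± 0.39 (adjusted p = 0.0215). No member passed when only these groups were fitted, or on leaving out Low-VCR 1, Low-VCR 3, High-VCR 1 or High-VCR 4, and 20 passed without Low-VCR 4 or without High-VCR 2.

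Low-VCR against VCR gave 38 members, 5 lower and 33 higher (3.7% and 24.4%), where 13.6% of all genes were lower and 16.7% higher. The split was 12 lower and 34 higher with library size alone, where all tested genes gave 4081 lower and 2515 higher. Ccdc6 had 59.4, 60.3, 57.4 and 45.9 CPM in Low-VCR libraries, against 15.8, 26.5, 33.6 and 27.3 CPM in VCR, a difference of 1.11 ± 0.19 (adjusted p = 0.00265). Ccdc50, a ubiquitin-binding protein of receptor signalling, had 36.4, 43.5, 36.5 and 36.7 CPM in Low-VCR libraries, against 12.8, 13.1, 25 and 19.8 CPM in VCR, a difference of 1.11 ± 0.19 with the same adjusted p. Ccdc121 gave 2.60 ± 0.42 (adjusted p = 0.00237). When only Low-VCR and VCR were fitted no member passed, and 24 passed without VCR 2 and 68 without VCR 3.

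High-VCR against VCR gave no member, where 0.00605% of all genes passed by edgeR, and DESeq2 gave none either. An unadjusted p under 0.05 was found for 8 members, against 8.21% of all genes, the smallest for Ccdc50, Ccdc85b and Ccdc6, at adjusted p of 0.418, 0.441 and 0.481. ALL against NC gave no member by edgeR or DESeq2, where 0% of all genes passed by edgeR, and 3 members had an unadjusted p under 0.05, against 4.52% of all genes. These were Ccdc163, Ccdc71 and Ccdc32, an adaptor-complex chaperone. Ccdc163 had 15.5, 14.4, 19.8 and 12.5 CPM in ALL libraries, against 30.2, 25.9, 34.3 and 29.9 CPM in NC, a difference of -0.95 ± 0.39 (adjusted p = 1) without overlap. Fitting ALL and NC alone called it (adjusted p = 0.0325). Ccdc159 had the 2nd lowest fold change of the members in ALL against NC.

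Because round spermatid genes fell together, Ccdc159 was also measured relative to 20 of them, as its log2(CPM + 1) minus their mean. The relative level was -1.21, -1.97, -0.38 and -0.70 in High-VCR libraries, -1.97, -0.44, -2.64 and -0.36 in Low-VCR, -1.39, -4.22, -0.74 and -1.63 in VCR, -2.03, -3.41, -2.7 and -2.53 in ALL, and between -2.14 and -1.96 in NC. NC libraries lay close together on this measure and VCR libraries spread on both sides of them. VCR minus NC was 0.05, from -2.0 ± 1.53 in VCR and -2.05 ± 0.10 in NC (SD, n = 4 each), with p = 1 by exact two-sided permutation. With no count in VCR 1, its value there was set by the pseudocount and the spermatid genes alone, and VCR 2 held 1 count. Without VCR 1 the difference was -0.15 (exact permutation p = 0.943) and without VCR 2 it was 0.80 (unadjusted exact permutation p = 0.0286), so this measure gave no firm direction. With a pseudocount of 0.5 it was -0.29, and against elongating spermatid genes -0.89.

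High-VCR minus ALL was 1.60 on this measure, from -1.07 ± 0.70 in High-VCR and -2.67 ± 0.57 in ALL, with no overlap and an exact permutation p of 0.0286, the smallest that 4 against 4 allows. Adjusted over the 7 comparisons it was 0.2 and did not pass, and against elongating spermatid genes the difference turned to -0.16. Low-VCR minus ALL was 1.32 (exact permutation p = 0.114), and ALL minus NC -0.62 (exact permutation p = 0.0857). The round spermatid genes themselves all fell in High-VCR (20 of 20, median -3.29), as in VCR (20 of 20, median -4.06), while in Low-VCR 7 of 20 fell (median -1.25), a count of 12 with DESeq2 size factors and 1 with library size alone.

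**Figure D5:**
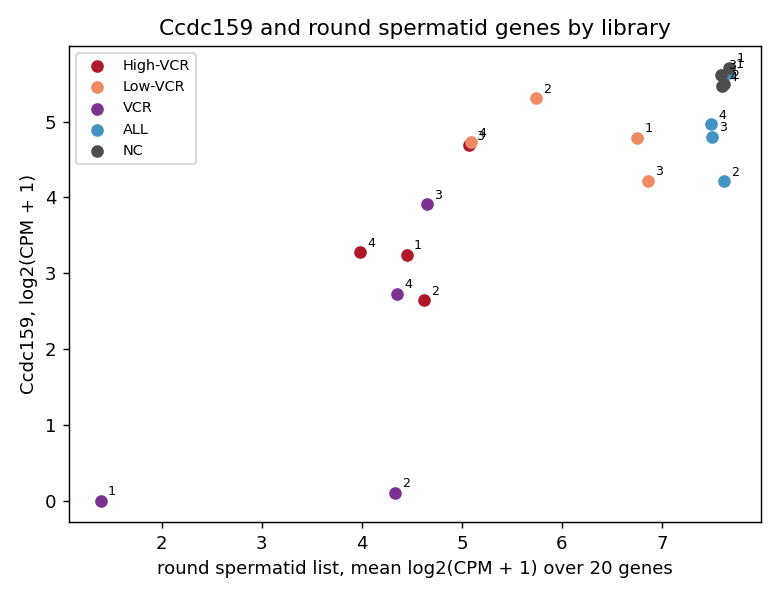
Ccdc159 as log2(CPM + 1) against the mean log2(CPM + 1) of 20 round spermatid genes in each library, coloured by group and numbered. NC libraries form 1 tight cluster, ALL 2 to 4 lie beneath it at the same spermatid level, VCR 2 has almost no Ccdc159 at a spermatid level shared by VCR 4, and VCR 1 is lowest on both axes.

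The genes whose levels over the 20 libraries were most like those of Ccdc159, by Pearson's r of log2(CPM + 1), were Dydc2 (0.939), Gm6657 (0.938), Dnajc9 (0.938), Sh3kbp1 (0.937) and Ugt8a (0.934). RefSeq lists Ccdc196 as an earlier name of Gm6657. Among Ccdc genes the most alike were Ccdc70 (0.915), Ccdc150 (0.911), Ccdc7b (0.908), Ccdc54 (0.901) and Ccdc200 (0.9). Over 134 members the median r was 0.76 and 96 were above 0, where the median over all tested genes was -0.13. The libraries share group, depth and tissue makeup, so these values describe likeness across 5 groups and carry no test.

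A few other members had no count in VCR 1, the library where Ccdc159 had none either. Ccdc63, a docking factor of outer dynein arms, had no count in VCR 1 and 276 to 409 counts in the other VCR libraries. Ccdc154 had none in VCR 1 and 129 to 460 counts in the others. Ccdc121rt2 had none in VCR 1 and at least 16 counts in the others. For Ccdc159 a count of 0 in VCR 1 allows up to 3 counts in that library, or 0.229 CPM, a limit that covers counting error only.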

How the data were processed

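RNA from the 20 testis samples, grouped by their titles, was counted in 1 table. The authors deposited these values as whole-number counts, 1 line per gene symbol and without normalisation. The build was GRCm39 and the tools were STAR (2.7.10b), Trimmomatic (0.39), Subread's featureCounts (2.0.3) and DESeq2 (1.36.0), per the submitters' processing notes. Not given in the sources used here are the tools' roles, the annotation, the strand setting and any removal of human reads. Poly(A) selection and a strand-keeping library kit are stated per the labels' protocols.

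Counts were tested with edgeR (4.0.16, with limma 3.58.1) under R (4.3.3): filterByExpr by group, TMM scaling and 1 robust quasi-likelihood fit of 5 group means to 20 libraries, with 15 residual degrees of freedom. Adjustment was by Benjamini-Hochberg over 16534 genes, for 7 comparisons and 2 interactions. A standard error is the size of the fold change over the root of its F statistic. The relative level of Ccdc159 was compared by exact permutation, adjusted over the 7 comparisons. The fit was tried on simulated counts with the same spread setting for all genes and groups. That trial does not cover the unequal spread of the groups here.

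Exon lengths and overlaps came from GENCODE M21 and promoters from RefSeq, both on GRCm38, joined by symbol only. An exon on the other strand overlaps 47 members and one on the same strand 11, so their reads may be shared with a neighbour.

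Named were Ccdc159 throughout; per main comparison the 5 deepest falls and 5 largest rises among called members that did not overlap and reached 1 CPM in the group where they were higher; the 2 smallest adjusted p of each role list; the 3 steadiest members at 20 CPM or more; the 3 smallest p of every other comparison; and the 5 genes and 5 members most like Ccdc159. Members and lists were chosen with earlier results of these data known. No pair of libraries of the same group was alike within sampling noise, and pairs across groups were not compared. Nothing in the labels says that the samples of a group are different animals, so a p-value reflects the spread among these samples, which may be technical. Alternatives were DESeq2 (1.42.0), other scalings and gene filters, fitting only the groups compared, blocks for replicate number and for library number range, another pseudocount and spermatid list, and leaving out each library.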

Additional observations from a re-analysis of the deposited data

Results flagged for a closer look

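Among 117 sets of 4 libraries, 1 per named gene and group, 7 held a library far from the other 3. Chance gives this in about 1 of 20 sets, so 7 is near the number that chance alone would give. Ccdc121 had 1.45 CPM in High-VCR 4 and 3.05 to 3.29 CPM in the other High-VCR libraries. Ccdc166 had 3.35 CPM in High-VCR 4 and 4.48 to 4.6 CPM in the others. Ccdc47 had 59.8 CPM in Low-VCR 4 and 43.6 to 46.2 CPM in the other Low-VCR libraries. Ccdc50 had 43.5 CPM in Low-VCR 2 and 36.4 to 36.7 CPM in the others. Ccdc125 had 0.656 CPM in VCR 3 and 2.28 to 2.51 CPM in the other VCR libraries. In NC, Ccdc149 had 0.861 CPM in NC 2 and 0.97 to 0.975 CPM elsewhere, and Ccdc66 had 83.5 CPM in NC 4 and 66.6 to 67.6 CPM elsewhere.

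The change with vincristine differed between leukaemia-bearing mice with low infiltration and mice with no injected cells named, by the interaction term of the edgeR fit, for Ccdc121 (2.69, adjusted p = 0.0262), Ccdc166 (1.51, adjusted p = 0.0352) and Ccdc50 (1.14, adjusted p = 0.0352). Ccdc121 changed by -1.37 in Low-VCR against ALL and by -4.06 in VCR against NC, Ccdc166 by -0.57 and -2.08, and Ccdc50 by -0.78 and -1.93. Leaving out single libraries gave adjusted p of 0.00365 to 0.0687 for Ccdc121, 0.00365 to 0.0801 for Ccdc166 and 0.00968 to 0.0745 for Ccdc50.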

How the results depend on the processing

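Ccdc159 in VCR against NC kept its direction and passed under every alternative run, and the Ccdc counts of VCR and High-VCR against their controls stayed within 1.5 times. Other results moved, and unless an alternative used fewer samples by construction the cause was not tested. Members lower in Low-VCR against ALL (23) numbered 51 with DESeq2 size factors, 4 with library size alone, 68 by DESeq2, 75 when only the groups compared were fitted, 62 with a block for library number range, and 12 to 21 on leaving out single libraries. Tested genes of any name that were lower there (2511) numbered 4525, 870, 5098, 4768 and 3678 in the same order, single libraries aside. Ccdc159 there turned to 0.0593 with library size alone and ran from -0.42 to 0.12 over single libraries left out. In High-VCR against ALL it passed at -1.66 when only those groups were fitted (adjusted p = 0.00986) and at -1.41 with the library number block (adjusted p = 0.0188), and single libraries left out gave -2.04 to -1.07. In Low-VCR against VCR it gave 2.43 when only those groups were fitted (adjusted p = 0.195) and 2.02 to 3.82 over single libraries left out. Fitting only the groups compared called 1 member in ALL against NC, 0 in High-VCR against Low-VCR (12), 0 in Low-VCR against VCR (38) and 7 for the Low-VCR interaction (11). High-VCR against Low-VCR gave 20 by DESeq2, 25 with the library number block and 0 to 20 over single libraries left out. Low-VCR against VCR gave 24 to 68 over single libraries left out. The Low-VCR interaction gave 4 with library size alone, 20 by DESeq2 and 0 to 26 over single libraries left out. Deviations of same-numbered libraries correlated between -0.572 and 0.699. Differently numbered libraries were not compared, so this range cannot say whether replicate numbers pair the samples. With the replicate number as a block, High-VCR against Low-VCR gave 4 members and the Low-VCR interaction 0.

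Ccdc97 in VCR against NC, near 0, gave 0.38 with library size alone, 0.16 with upper-quartile scaling and -0.0523 to 0.0534 over single libraries left out. Ccdc142 gave 0.34, 0.11 and -0.13 to 0.047. Library size alone moved the median of all genes by 0.39, 0.26 and 0.29 in VCR, Low-VCR and High-VCR against their controls, and DESeq2 size factors by -0.12, -0.17 and -0.18. Over all alternatives, values of the named genes other than Ccdc159 kept direction and side of the threshold in 962 cases, lost the call in 85, gained it in 3 and turned sign in 11, all of these for Ccdc97 and Ccdc142.

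The level of Ccdc159 relative to round spermatid genes, VCR against NC, was 0.05, and it gave -0.29 with a pseudocount of 0.5, -0.89 against elongating spermatid genes, -0.0307 with library size alone and -0.37 to 0.80 over single libraries left out. Against elongating spermatid genes it gave -0.16 in High-VCR against ALL, -0.85 in High-VCR against Low-VCR and -0.12 in High-VCR against VCR. Single libraries left out gave -0.14 to 0.62 in High-VCR against Low-VCR and -0.10 to 1.07 in Low-VCR against VCR. Counts of 0 to 3 limit what can be said of Ccdc159 in VCR 1 and 2.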
